A study of Mus musculus with 4 samples.

Results

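Nerve cells 1 and nerve cells 2 are a pair of cell populations that the authors of a single-cell atlas of the mouse Achilles tendon, which anchors the calf muscle to the heel, named in their cell annotation. They were taken by those names from libraries 1, 2 and 3, which gave 48 cells of nerve cells 1 (15, 23 and 10 cells) and 46 of nerve cells 2 (19, 24 and 3 cells), together 94 of 1191 cells. Library 4 holds 1 cell named nerve cells 1 and 0 of nerve cells 2, and entered no comparison. Per the labels, every library came from Achilles tendons of male C57Bl/6 mice aged 6 weeks, with no treatment or genetic change named, and was made with the 10x Genomics Chromium 3-prime kit, version 3. Captured molecules are counted there by unique molecular identifiers (UMIs), once per molecule. Whether a library is 1 mouse or several is not stated, so the p-values measure the spread between libraries, which may be technical. No cell barcode was shared between libraries.

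Schwann cells are the glia of peripheral nerves. A myelinating Schwann cell wraps a single axon in compacted membrane made of a few abundant proteins, such as myelin basic protein, and sits inside a basal lamina of its own, while non-myelinating Schwann cells hold bundles of thin axons. The POU-domain factor Pou3f1 (also called Oct6) is known for acting in promyelinating cells, before Egr2 drives the myelin genes, and after nerve damage Schwann cells take on a repair state with high Jun.

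The raw UMIs of each population were summed within each library, so that 3 libraries gave 3 pairs of sums. Values below are CPM, the UMIs of a gene scaled to 1000000 UMIs of its sum, listed in the order of libraries 1, 2 and 3. The sums held 59980, 176086 and 61217 UMIs for nerve cells 1 and 148862, 359997 and 19657 for nerve cells 2, where the smallest rests on 3 cells. Cells of nerve cells 1 were shallower and richer in mitochondrial transcripts. Their median UMIs per cell were 3326, 6395 and 4592 against 6349, 13553.5 and 8239, and the median mitochondrial share of a cell's UMIs was 7.03%, 7.44% and 7.33% against 3.23%, 4.16% and 4.15%. Both differences had the same direction in 3 of 3 libraries, with a two-sided exact permutation test over libraries at p = 0.25, the smallest value 3 pairs can give.

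Both populations carried the transcripts of myelinating Schwann cells at high levels. Mbp, which encodes myelin basic protein, stood at 12488, 13811 and 15617 CPM in nerve cells 1 and at 11326, 16275 and 13125 CPM in nerve cells 2. The libraries of the populations overlapped, and the log2 difference of 0.18 ± 0.21 (SE) did not pass the test (edgeR, adjusted p = 0.64). Periaxin (Prx), a scaffold of the myelin sheath outside the compact layers, had 3362 ± 313 against 3062 ± 381 CPM (SD, n = 3 libraries each). The myelin-associated glycoprotein Mag had 380 ± 98.1 against 300 ± 69.3 CPM. Among the factors of the lineage, Sox10, which Schwann cells need at every stage, had 259 ± 78.3 against 308 ± 86.7 CPM. Egr2, the main driver of myelin genes, had 253 ± 73.3 against 296 ± 123 CPM. None of these 5 genes passed the test, and each overlapped between the populations.

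Compact myelin genes, a list of 10, took a median of 11.6%, 12.1% and 10.3% of a cell's UMIs in nerve cells 1 and 8.35%, 10.6% and 10.5% in nerve cells 2. In the 27 cells named nerve cells 3 of libraries 1 and 2 the medians were 1.31% and 1.25%, so both populations stood well above that one. Of 17 genes listed with non-myelinating Schwann cells, 8 (L1cam, Ngfr, Scn7a, Chl1, Ptprz1, Gfra3, Bche and Gap43) had 0 UMIs in both populations. The list summed to 650, 1090 and 425 CPM in nerve cells 1 and 477, 619 and 153 CPM in nerve cells 2, and its 1 gene deep enough to test, Apod, was higher in nerve cells 1. The neural cell adhesion molecule Ncam1 had 2 UMIs in nerve cells 1 and 1 in nerve cells 2, against 491 and 908 CPM in nerve cells 3 of libraries 1 and 2. Of 8 neuron markers listed there, 6 had 0 UMIs on both sides, and the list summed to between 16.3 and 102 CPM. On these lists both populations carried Schwann cell transcripts, with neuron markers at or near 0.

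Markers of other cell types were low on both sides, apart from fibroblast genes. All 8 skeletal muscle genes in the table were at 0 UMIs. The 9 macrophage and monocyte genes summed to between 0 and 50.9 CPM with C1qa, Csf1r and Ptprc at 0, and the 10 endothelial genes to between 50.9 and 150 CPM with Cldn5 at 0. The 9 pericyte and smooth muscle genes summed to between 278 and 560 CPM. The 11 fibroblast genes, whose transcripts mark the tendon's own cells, summed to 2884, 2351 and 3006 CPM in nerve cells 1 and 1847, 2714 and 1933 CPM in nerve cells 2. The 4 hemoglobin genes summed to between 163 and 333 CPM and between 50.9 and 275 CPM. Of the 51 genes in these 6 lists 5 were deep enough to test, 3 of them fibroblast genes, and 0 passed with edgeR or DESeq2, also at an unadjusted p of 0.05. Those 3, Col1a1, Col1a2 and Col3a1, also belong to the list of nerve collagens below. Col1a1 had 1139 ± 148 against 802 ± 338 CPM and Col1a2 1093 ± 30.8 against 988 ± 222 CPM, both above Sox10.

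**Figure D1:**
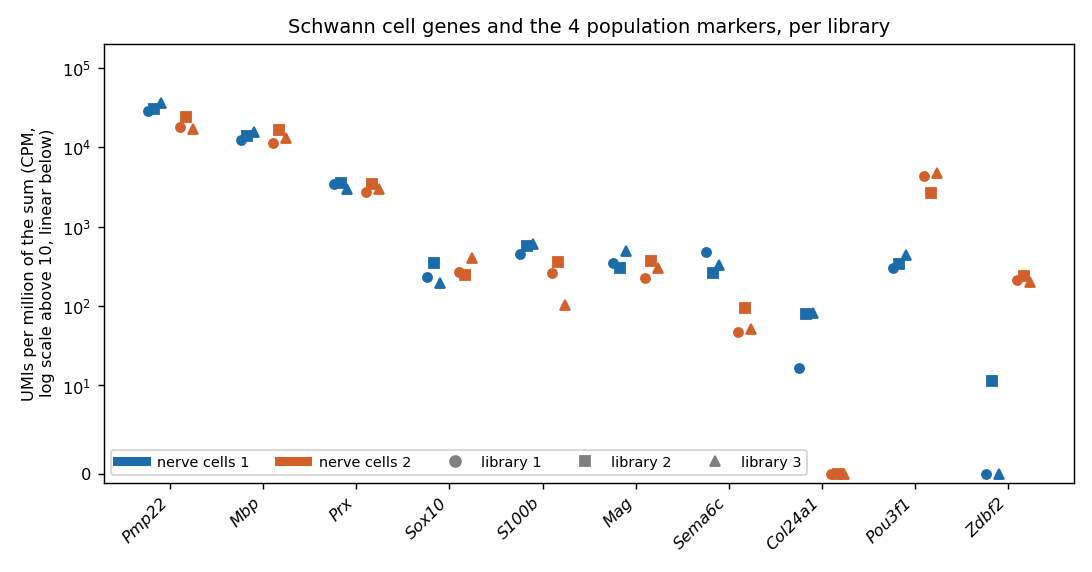
CPM (vertical axis, logarithmic above 10 and linear below) of 6 Schwann cell genes and the 4 population markers, with 1 point per library and population (blue for nerve cells 1, orange for nerve cells 2, the shape giving the library). Points of Mbp overlap between the colours, while Pou3f1 lies between 300 and 441 CPM in blue and between 2675 and 4731 CPM in orange.

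Each population is marked by a pair of genes, here given as a description because the authors formed the populations from these same counts. Pou3f1 (chr4:124656807-124660655, plus strand, GRCm38) had 300, 335 and 441 CPM in nerve cells 1 and 4373, 2675 and 4731 CPM in nerve cells 2. The populations were far apart in every library, a log2 difference of -3.24 ± 0.26 (SE). Nerve cells 3 of libraries 1 and 2 had 284 and 82.6 CPM. After each cell was thinned to 3000 UMIs, with 8 and 1 shallower cells left out, Pou3f1 was found in 45% of nerve cells 1 (exact Clopper-Pearson 95% interval 29.3 to 61.5%) and 97.8% of nerve cells 2 (88.2 to 99.9%). In endothelial cells 1 of the same libraries, taken as cells that should lack these genes, it was found in 7.43% (3.77 to 12.9%). Median depth before thinning was 5187, 10375 and 7263.5 UMIs in the 3 populations, and the unthinned shares of cells with Pou3f1 were 60.4%, 100% and 14.3%. Pou3f1 was thus also present in nerve cells 1, above the share in endothelial cells.

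Zdbf2 (chr1:63273265-63314576, plus strand), an imprinted gene that encodes a zinc finger protein, had 0, 11.4 and 0 CPM in nerve cells 1, from 2 UMIs, and 215, 236 and 203 CPM in nerve cells 2. The ratio was 34.0 (exact 95% counting interval 9.22 to 284). It was the only 1 of the 3 imprinted genes tested, of 23 in the table, that passed the test, a call lost without library 2 (edgeR, adjusted p = 0.085). Without library 3, 8 imprinted genes could be tested, of which 3 were lower (background 8.68%) and 0 higher. The marker Zdbf2 is among those 3, so that count is a description too. Kcnq1ot1 of that list, not tested in the main comparison, had 83.4, 45.4 and 81.7 CPM against 383, 378 and 0 CPM. Thinned cells held Zdbf2 in 2.5% and 28.9% (16.4 to 44.3%), against 0 of 148 endothelial cells, which by the 3-count floor allows up to 2.03% of cells to hold a UMI. Unthinned, the shares were 4.17%, 37.0% and 1.19%.

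On the other side, Sema6c (chr3:95160457-95174024, plus strand), a transmembrane semaphorin of the family that guides axons, had 483, 261 and 327 CPM in nerve cells 1 and 47.0, 94.4 and 50.9 CPM in nerve cells 2. The libraries did not overlap, and the log2 difference was 2.27 ± 0.37 (SE). It was found in 65% of thinned nerve cells 1 (48.3 to 79.4%), 20% of nerve cells 2 (9.58 to 34.6%) and 0 of 148 endothelial cells, and unthinned in 75.0%, 39.1% and 0.595%. Col24a1 (chr3:145292472-145552011, plus strand), a fibrillar collagen, had 1, 14 and 5 UMIs in nerve cells 1 and 0 in every library of nerve cells 2, too few for the test. That is at least 11.9-fold higher in nerve cells 1, against a floor of 3 counts over the group. Only 10.0% of thinned nerve cells 1 held a Col24a1 UMI (2.79 to 23.7%), against 0 of 45 nerve cells 2, which allows up to 6.67% at the same floor, and unthinned it was in 22.9%, 0% and 0.595% of nerve cells 1, nerve cells 2 and endothelial cells. Cells with a UMI of it were thus a minority.

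Across all genes, 1925 could be tested with edgeR's quasi-likelihood test and 304 were called at an adjusted p of 0.05, 15.8% of those tested. Of them 113 (5.87%) were higher and 191 (9.92%) lower in nerve cells 1, 296 kept 1 direction in 3 of 3 libraries, and the median log2 difference of all genes tested was 0.04. The populations did not overlap in 620 of the 1925 genes tested and in 284 of the 304 called. A lack of overlap therefore adds little to a call. The falls were deeper: 47 genes fell by more than 3 on the log2 scale and 1 rose by as much. The populations were formed from these counts, so these p-values say how evenly already sorted cells differ over libraries. The gene lists were chosen with earlier results of these data known, so their counts beside a background are not blind. To cluster and test on different UMIs, the 94 cells were divided anew into 2 clusters on 50% of their UMIs and tested on the rest. These cells had been chosen and named on all their UMIs, so the division is not independent of the labels. One cluster took all 48 nerve cells 1 and 3 nerve cells 2, the other the remaining 43. There 138 of 880 genes were called (15.7%), 50 higher and 88 lower, and 129 of them were among the 304, all in the same direction. DESeq2 called 131 of the 1925 genes (6.81%), with 1.82% of genes higher and 4.99% lower in nerve cells 1. The background shares of higher and lower genes were 2.86% and 17.1% with limma, 5.68% and 10% with clusters formed on the other UMIs, and 4.05% and 8.71% in cells with a mitochondrial share of 7% or less. That limit kept 7, 11 and 5 cells of nerve cells 1 and 19, 24 and 2 cells of nerve cells 2. Without library 1, 152 of 2243 genes were called (6.78%), without library 2, 43 of 1088 (3.95%), and without library 3, 404 of 3077 (13.1%).

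Immediate early genes, which cells switch on within minutes of a stimulus, and heat shock genes were lower in nerve cells 1. A list of 18 such genes, known to be induced while tissue is dissociated, summed to 1717, 2942 and 1830 CPM in nerve cells 1 and to 18836, 23195 and 19179 CPM in nerve cells 2. Of 17 tested, 16 were lower in nerve cells 1 (background 9.92%) and 0 higher, with a median log2 difference of -3.81 against 0.04 over all genes tested. Without library 3, 17 of 18 were lower (background over all genes 8.68%), without library 2, 11 of 15 (3.03%), and without library 1, 15 of 17 (5.26%). With clusters formed on the other UMIs it was 14 of 16 (10%) with a median of -2.56, and among cells with a mitochondrial share of 7% or less, 15 of 17 (8.71%).

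Fos, a partner in the AP-1 transcription factor, had 66.7, 619 and 81.7 CPM in nerve cells 1 and 4763, 6261 and 3358 CPM in nerve cells 2. No library overlapped, although library 2 stood above the others in nerve cells 1, and the log2 difference was -4.21 ± 0.34 (SE; edgeR, adjusted p = 2.11e-10). The other AP-1 members were lower too, with log2 differences of -3.94 for Fosb, -4.05 for Junb and -2.13 for Jund. Jun itself had 50, 56.8 and 81.7 CPM against 914, 900 and 1068 CPM, without overlap (-3.81 ± 0.34, edgeR adjusted p = 1.39e-09). Atf3, a stress-induced factor of the same protein class, had 2 UMIs in nerve cells 1, all in library 2, against 672, 581 and 1068 CPM in nerve cells 2. The ratio was 92.8 (exact 95% counting interval 25.5 to 770). Thinned cells held Atf3 in 0 of 40 nerve cells 1, which allows up to 7.5% at a floor of 3 cells, and in 75.6% of nerve cells 2 (60.5 to 87.1%). Unthinned, the shares were 4.17% and 84.8%.

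The list of immature and repair state regulators met this list. Of its 14 genes counted there, 4 could be tested, and all 4 (Jun, Egr1, Egr3 and Atf3) were lower in nerve cells 1, but 3 of them also belong to the list of dissociation genes. Egr1 had 50.9 CPM in the 3-cell sum of nerve cells 2 and so overlapped. Egr3, the fourth, had 1 UMI in each library of nerve cells 1 and 343, 350 and 560 CPM in nerve cells 2 (ratio 35.2, exact 95% counting interval 11.9 to 172). The secreted factors of repair cells, Gdnf, Artn, Bdnf, Ntf3 and Lif, had 0 UMIs on both sides. Sox2, a factor of immature Schwann cells, had 33.3, 17 and 16.3 CPM in nerve cells 1 and 289, 167 and 0 CPM in nerve cells 2, so the populations overlapped in library 3, and it was too low to test.

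Orphan nuclear receptors, which act without a known ligand, are a further class of immediate early genes. Nr4a1 had 167, 153 and 245 CPM in nerve cells 1 and 1256, 2506 and 1526 CPM in nerve cells 2, without overlap (-3.22 ± 0.32 SE, edgeR adjusted p = 6.71e-09). Nr4a3 had 1 UMI in each library of nerve cells 1 and 806, 1003 and 967 CPM in nerve cells 2, a ratio of 93.7 (exact 95% counting interval 31.9 to 456). Among factors that limit such responses, Btg2, which restrains division, had 3 UMIs against 464, 619 and 458 CPM (ratio 56.4, interval 19.1 to 275). Dusp1, a phosphatase of MAP kinases, had 0, 28.4 and 16.3 CPM against 349, 347 and 305 CPM (-3.93 ± 0.49 SE), and lost its call without library 2 (edgeR, adjusted p = 0.052). Zfp36, which destabilises messenger RNA, had 0, 39.8 and 32.7 CPM against 564, 808 and 916 CPM. The stress-responsive Ier3 had 3 UMIs in nerve cells 1 (ratio 19.3, interval 6.43 to 95.2). Nfkbia, the inhibitor of NF-kappa-B, was the exception in the list: 283, 165 and 98.0 CPM against 262, 231 and 102 CPM overlapped, and it did not pass the test (-0.096 ± 0.33 SE).

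Heat shock genes, whose products keep proteins folded, were lower as well. Hspa8, a chaperone present in every cell, had 317, 409 and 588 CPM in nerve cells 1 and 1666, 1269 and 2442 CPM in nerve cells 2. The libraries did not overlap (-1.85 ± 0.26 SE, edgeR adjusted p = 3.00e-06). Hsp90aa1 had a log2 difference of -1.98, not called without library 2 (edgeR, adjusted p = 0.053). The near-identical copies Hspa1a and Hspa1b had -1.55 and -3.49, and how the authors' counting split reads between them is uncertain. Library 2 held all 26 Hspa1a UMIs of nerve cells 1, and the Hspa1a call was lost without library 1 or library 2 (edgeR, adjusted p = 0.24 and 0.065). With clusters formed on the other UMIs Hspa1a had -0.70 (edgeR, adjusted p = 0.44).

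**Figure D2:**
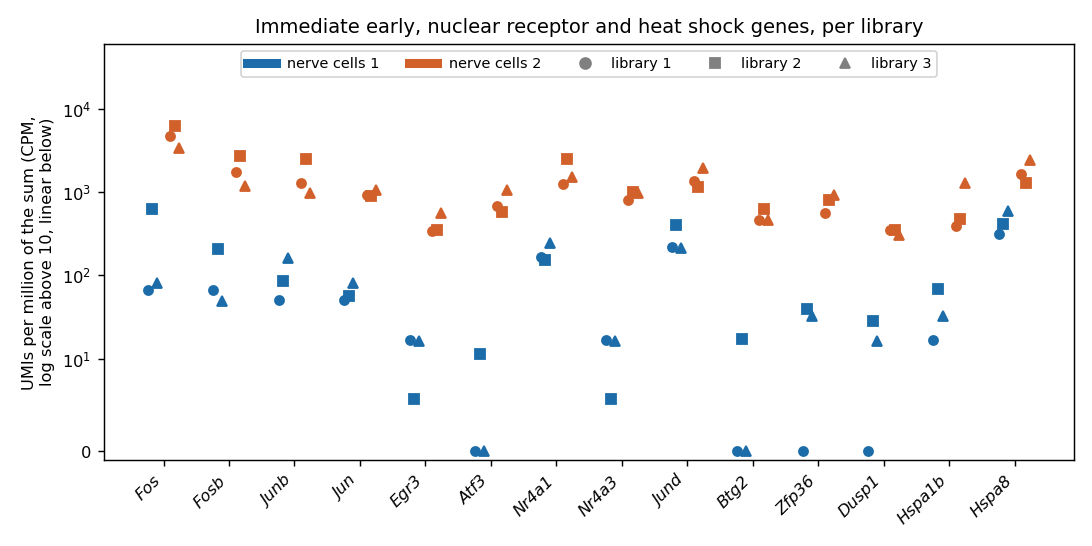
CPM (vertical axis, logarithmic above 10 and linear below) of 14 immediate early, nuclear receptor and heat shock genes, with 1 point per library and population (blue for nerve cells 1, orange for nerve cells 2, the shape giving the library). For each gene the orange points lie above the blue ones, as for Fos with at least 3358 CPM against at most 619.

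The promoters of 3 genes that were lower in nerve cells 1 are shown because they hold a motif for an inducible factor, the cAMP response element TGACGTCA bound by CREB and ATF factors, or a pair of heat shock half-sites, GAANNTTC. Each is the 250 bases before the gene's start in RefSeq (GRCm38.p6), 5′ to 3′ on the gene's strand, with the match in capitals. All 3 genes are on the minus strand: Btg2 at chr1:134079156-134079405, Dusp1 at chr17:26508473-26508722 and Hspa1b at chr17:34959239-34959488.
Btg2: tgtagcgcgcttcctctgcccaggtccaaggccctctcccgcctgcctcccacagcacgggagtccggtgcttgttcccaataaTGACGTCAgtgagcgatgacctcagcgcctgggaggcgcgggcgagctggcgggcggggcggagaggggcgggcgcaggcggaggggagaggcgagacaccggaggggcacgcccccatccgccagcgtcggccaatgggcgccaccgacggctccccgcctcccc
Dusp1: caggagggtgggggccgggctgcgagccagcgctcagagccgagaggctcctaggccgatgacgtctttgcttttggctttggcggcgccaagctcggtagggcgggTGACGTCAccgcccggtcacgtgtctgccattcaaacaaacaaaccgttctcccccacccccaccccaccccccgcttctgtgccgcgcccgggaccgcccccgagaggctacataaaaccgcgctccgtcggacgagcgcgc
Hspa1b: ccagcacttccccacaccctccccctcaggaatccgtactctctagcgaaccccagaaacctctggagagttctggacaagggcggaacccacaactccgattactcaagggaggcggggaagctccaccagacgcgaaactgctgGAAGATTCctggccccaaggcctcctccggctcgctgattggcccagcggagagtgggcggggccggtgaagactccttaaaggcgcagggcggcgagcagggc
The matches begin 166, 143 and 104 bases before the start. Of the 18 dissociation genes 14 had a promoter in the table. The cAMP response element was in 2 of them and in 1.55% of all 32851 promoters, the heat shock pair in 3 (Jun, Hspa1a and Hspa1b) and 6.69%, and the AP-1 motif TGANTCA in 0 and 6.75%, both strands searched. A match describes these letters only.

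Cell by cell, the division was wide. The 18 genes took 0.134%, 0.161% and 0.172% of a cell's UMIs at the median in nerve cells 1 and 1.94%, 2.32% and 1.76% in nerve cells 2. Within each library the highest cell of nerve cells 1 (0.627%, 1.27% and 0.290%) lay below the lowest of nerve cells 2 (0.842%, 1.33% and 1.59%). The same share had a median of 3.38% in nerve cells 3 and between 0% (red blood cells) and 1.25% (endothelial cells 2) in the other populations. Nerve cells 1 therefore had a lower median than every population but red blood cells, and nerve cells 2 a higher one than every population but nerve cells 3. Mitochondrial share and depth per cell also differed between the populations, and their part in this difference was not tested.

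**Figure D3:**
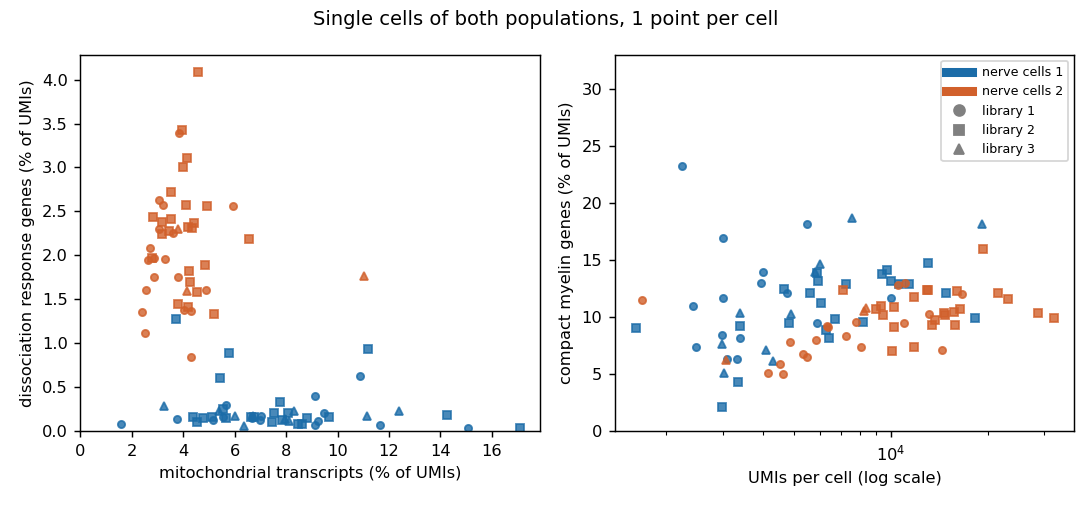
Single cells of libraries 1 to 3, 1 point per cell (blue for nerve cells 1, orange for nerve cells 2, the shape giving the library). Left, the share of UMIs in 18 dissociation response genes against the mitochondrial share; right, the share in compact myelin genes against UMIs per cell on a logarithmic axis. Within each library the populations separate on the left vertical axis, and they overlap on the right one.

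**Figure D4:**
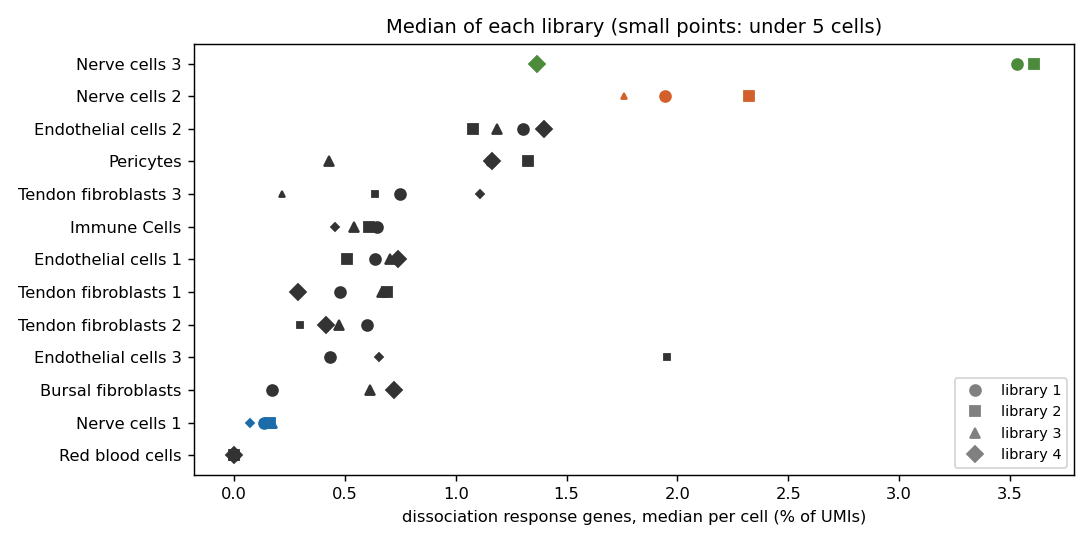
Median share of a cell's UMIs in the 18 dissociation response genes (horizontal axis, percent) for each of the 13 annotated populations, with 1 point per library and small points for fewer than 5 cells. Nerve cells 1 lie between 0.0728% and 0.172% and nerve cells 2 between 1.76% and 2.32%.

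Of the 10 deepest falls 5 had 0 UMIs in nerve cells 1, and none of these 5 is in that list. Maff, a small basic leucine zipper factor, had 0 UMIs in nerve cells 1 and 242, 186 and 407 CPM in nerve cells 2, so it was at least 20.8-fold lower in nerve cells 1. The circadian repressor Bhlhe40 (at least 23.8-fold), the kinases Sik1 (17.2-fold) and Pim1 (17.6-fold) and the membrane protein Emp1 (13.9-fold), each at 0 UMIs in nerve cells 1, were also lower by at least these folds. Each was present in all 3 libraries of nerve cells 2, and without library 2 the calls of Maff and Pim1 were lost (edgeR, adjusted p = 0.062 and 0.061). Bhlhe40 was not called with DESeq2 (adjusted p = 0.12). Irf1, the interferon regulatory factor, had 0, 17 and 16.3 CPM against 887, 594 and 610 CPM (-5.42 ± 0.48 SE). Tnfrsf12a, the receptor of the cytokine TWEAK, had 2 UMIs in nerve cells 1 (ratio 48.9, interval 13.3 to 407). In nerve cells 3 of libraries 1 and 2, Emp1 stood at 3611 and 2944 CPM and Irf1 at 1115 and 1156 CPM. Sik1 was at 0 in both there, and Nr4a3 at 94.5 and 165 CPM.

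Among 27 regulators of myelination, 14 were tested, 1 was higher (background 5.87%) and 3 were lower (9.92%), with a median log2 difference of -0.18. Pou3f1, counted among the lower ones, is a marker of the populations. The others were Id4, an inhibitor of helix-loop-helix factors, with 16.7, 28.4 and 16.3 CPM against 148, 97.2 and 153 CPM, and Ski, a corepressor of TGF-beta signalling, with 16.7, 102 and 98.0 CPM against 242, 181 and 407 CPM. Neither overlapped. Foxd3, a neural crest factor of the Schwann lineage list, had 50, 73.8 and 32.7 CPM against 148, 278 and 102 CPM (-1.69 ± 0.41 SE, edgeR adjusted p = 0.0037). Without library 1, Id4, Ski and Foxd3 lost their calls (edgeR, adjusted p = 0.15, 0.28 and 0.057). The higher one, Dhh, is the hedgehog ligand by which Schwann cells organise the sheath around nerve fascicles. Dhh had 534, 278 and 392 CPM in nerve cells 1 and 73.9, 200 and 0 CPM in nerve cells 2, without overlap (1.65 ± 0.40 SE, edgeR adjusted p = 0.0042). It was in 62.5% of thinned nerve cells 1 (45.8 to 77.3%), 22.2% of nerve cells 2 (11.2 to 37.1%) and 6.08% of endothelial cells. Unthinned, the shares were 62.5%, 63.0% and 10.7%, so the order in cells appeared at matched depth only. The Dhh call was lost without library 1 and with clusters formed on the other UMIs (edgeR, adjusted p = 0.20 and 0.13).

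**Figure D5:**
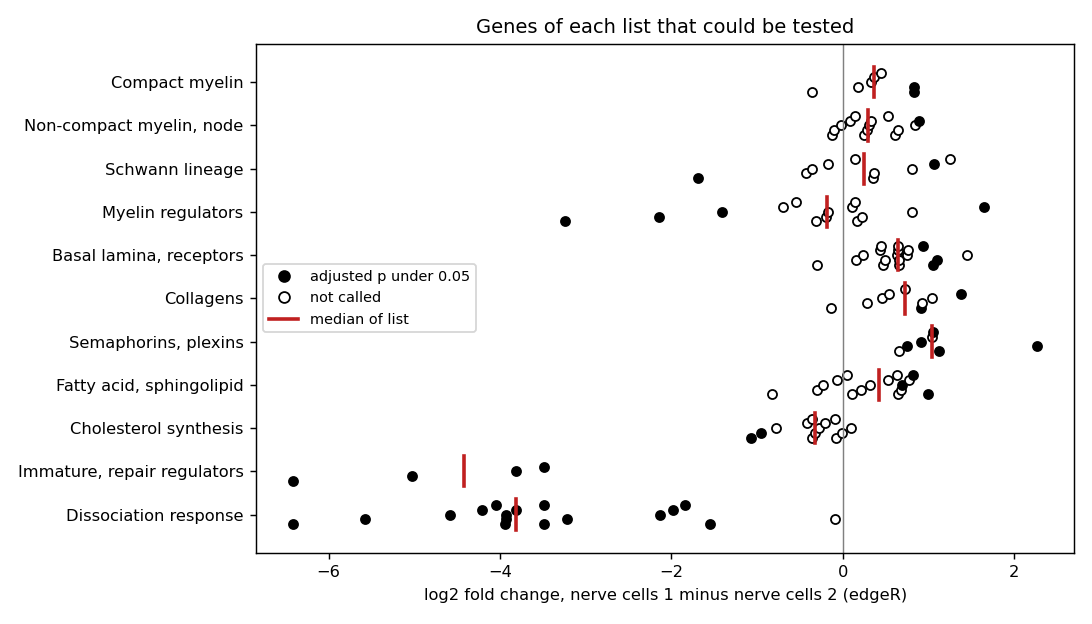
Fitted log2 difference, nerve cells 1 minus nerve cells 2 (horizontal axis), of the genes tested in 11 lists, with 1 point per gene, filled where the adjusted p is under 0.05, and a red line at the median of each list. The dissociation response genes have a median of -3.81 and the semaphorins and plexins one of 1.04, while compact myelin genes lie near 0.36.

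The genes with the largest rises in nerve cells 1 had a mixed make-up. Gm42418 (chr17:39846958-39848788, plus strand), a non-coding gene that overlaps ribosomal RNA sequence, had 43965, 28287 and 13656 CPM against 6214, 6239 and 4528 CPM. All libraries of nerve cells 1 lay higher (2.36 ± 0.24 SE, edgeR adjusted p = 1.74e-08), and a single cell of library 2 reached 33.7% of its UMIs. AY036118 lies within it on the other strand, so the reads of the pair cannot be told apart unless counting used strand, which is not given in the sources used here. Lars2, the leucyl-tRNA synthetase of mitochondria, had 1734, 1471 and 1634 CPM against 309, 253 and 458 CPM (2.52 ± 0.27 SE). A list of 13 mitochondrially encoded genes, chosen after seeing the data, summed to 73474, 69517 and 69981 CPM against 34562, 40350 and 50720 CPM, with 11 of 12 tested higher (background 5.87%). That count was 4 without library 1, 2 without library 2 and 5 in cells with a mitochondrial share of 7% or less. The 7% limit selects cells on the transcripts of these same genes, so it partly sets the last count. A list of 83 ribosomal protein genes, also chosen after seeing the data, had 12 of 80 tested lower (background 9.92%) and 0 higher, with a median of -0.52. DESeq2 called 1 of them and limma 52. Without library 1 and without library 2, edgeR called 0, with 11 of 80 and 18 of 77 at an unadjusted p under 0.05. Over all genes these counts were 365 of 2243 and 310 of 1088. Without the mitochondrial genes, Gm42418, AY036118 and Lars2, 287 of 1937 genes were called (14.8%). Depth and mitochondrial share moved with these genes, and their part was not tested.

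The other rises were less abundant. Fam26e, a gene of the calcium homeostasis modulator family, had 133, 136 and 114 CPM against 13.4, 16.7 and 0 CPM (3.22 ± 0.63 SE), the largest fitted rise among the genes tested. Sesn1, a stress-inducible inhibitor of mTORC1 signalling, had 183, 318 and 229 CPM against 47.0, 47.2 and 50.9 CPM (2.59 ± 0.38 SE), not called without library 2 (edgeR, adjusted p = 0.10). Pik3ip1, an inhibitor of PI3 kinase, had 267, 153 and 147 CPM against 87.3, 22.2 and 0 CPM. Snhg20, a non-coding host of small nucleolar RNA, rose by 2.81, the arrestin-domain gene Arrdc2 by 2.28 and D630003M21Rik by 2.23 on the log2 scale. None of these 6 overlapped between the populations, as was so for 284 of the 304 called genes.

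Semaphorins are guidance proteins read by plexin and neuropilin receptors. Of 31 genes of these families 7 could be tested, 5 were higher (background 5.87%) and 0 lower, with a median log2 difference of 1.04. Sema6c, a marker of the populations and so given as a description, is among these 5. It kept its call in every alternative that tested it, while the others each lost theirs in at least 1. DESeq2 and limma each called 1 of 7, limma with a median of 0.26, and clusters formed on the other UMIs gave 1 of 5. In each of these the 1 gene was Sema6c. Besides Sema6c, the secreted Sema3g had 383, 352 and 376 CPM against 128, 264 and 50.9 CPM (1.13 ± 0.34 SE), without overlap. Sema5a had 1034, 926 and 866 CPM against 336, 797 and 560 CPM (0.91 ± 0.28 SE), also without overlap. Sema4c and Sema3b rose by 1.05 and 0.75 but overlapped. Without library 1, and likewise without library 2, 1 of 7 was called (background for higher genes 1.52% and 0.919%), and without library 3, 5 of 11 (4.45%).

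Genes of the basal lamina and the nerve's collagens lay mostly on the same side. Of 18 basal lamina and receptor genes tested, 17 had a positive difference and 3 passed the test (background 5.87%), with a median of 0.64. Over all genes 1017 of 1925 were positive. DESeq2 and limma each called 1 of the 18, limma with a median of 0.15. Lamb1, a laminin chain, had 1234, 897 and 1013 CPM against 524, 647 and 305 CPM (1.10 ± 0.27 SE). Col4a1, a network-forming collagen of basal laminae, had 1567, 1181 and 1372 CPM against 752, 1033 and 407 CPM, and the laminin receptor subunit Itgb4 400, 295 and 278 CPM against 202, 169 and 102 CPM. Their libraries did not overlap. The Col4a1 call was lost with clusters formed on the other UMIs (edgeR, adjusted p = 0.093). Dystroglycan (Dag1), another laminin receptor, had 1596 ± 109 against 1105 ± 160 CPM and did not pass (edgeR, adjusted p = 0.067). Of 9 collagens tested, 2 were higher: Col5a3 with 950, 778 and 800 CPM against 497, 492 and 458 CPM, and the transmembrane Col23a1 with 400, 346 and 376 CPM against 73.9, 267 and 0 CPM. Clusters formed on the other UMIs gave 0 of 7 collagens, with Col5a3 and Col23a1 at an adjusted p of 0.094 and 0.13 (edgeR). Without library 1 or library 2, edgeR called 0 genes of either list, and without library 3, 2 of each. At an unadjusted p under 0.05 stood 4 of 18 basal lamina genes and 2 of 9 collagens without library 1 (365 of 2243 over all genes). Without library 2 it was 7 of 14 and 6 of 9 (310 of 1088).

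Within the myelin genes, 2 of 7 compact myelin genes passed the test, both higher in nerve cells 1 (background 5.87%), with a median of 0.36 for the list. DESeq2 called 1 of the 7. The membrane protein Pmp22 had 28926, 30684 and 35644 CPM against 18191, 24011 and 16890 CPM (0.83 ± 0.22 SE, edgeR adjusted p = 0.0078). The proteolipid Mal had 7036, 6752 and 6403 CPM against 3695, 5244 and 3561 CPM (0.84 ± 0.22 SE). Neither overlapped, yet without any 1 of the 3 libraries neither passed the test. Of 14 genes of non-compact myelin and the node tested, 1 was higher, the adhesion molecule Cadm4 (0.89 ± 0.26 SE), a call lost without any 1 library. S100b, a calcium-binding protein of Schwann cells, had 450, 579 and 604 CPM against 262, 356 and 102 CPM (1.06 ± 0.30 SE), without overlap, and also lost its call without any 1 library. Of the 10 Schwann lineage genes tested, S100b was higher (background 5.87%) and Foxd3 lower (9.92%), with a median of 0.24 that turned to -0.21 with limma on the mean log value per cell. That scaling moved the median of all genes to -0.15.

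Myelin is rich in lipids that Schwann cells make themselves. Of 16 genes of fatty acid and sphingolipid synthesis tested, 3 were higher (background 5.87%) and 0 lower, with a median of 0.42 that was 0.034 with limma. Scd2, a desaturase of fatty acids, had 3468, 4021 and 4884 CPM against 2029, 3414 and 3001 CPM (0.69 ± 0.22 SE). Ugt8a, which makes the galactosylceramide of myelin, rose by 0.82, and the ceramide synthase Cers2 by 0.997 on the log2 scale. Of 13 genes of cholesterol synthesis tested, 12 had a negative difference and 2 passed (background 9.92%), with a median of -0.33 that was -0.014 without library 2. Idi1 had 317, 261 and 474 CPM against 699, 778 and 712 CPM (-1.07 ± 0.28 SE), and Cyp51, a sterol demethylase, had 333, 324 and 310 CPM against 638, 786 and 560 CPM (-0.95 ± 0.28 SE). Neither overlapped. The key enzyme Hmgcs1 did, with 1259 ± 185 against 1713 ± 381 CPM. With clusters formed on the other UMIs the calls of Ugt8a, Cers2 and Cyp51 were lost (edgeR, adjusted p = 0.078, 0.067 and 0.38). Scd2 and Idi1 kept theirs. With DESeq2, and with edgeR without library 1 or library 2, 0 genes of either list were called. At an unadjusted p under 0.05 stood 3 of 16 fatty acid and sphingolipid genes and 2 of 13 cholesterol genes with DESeq2 (298 of 1925 over all genes). Without library 1 it was 0 of 17 and 2 of 15 (365 of 2243), and without library 2, 5 of 11 and 0 of 12 (310 of 1088). The difference between the 2 pathways was not tested.

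Single members of further lists also rose. Apod, a lipid carrier listed with non-myelinating Schwann cells, had 433, 909 and 294 CPM against 107, 306 and 0 CPM (1.94 ± 0.32 SE, edgeR adjusted p = 4.45e-05), with overlap between library 3 of nerve cells 1 and library 2 of nerve cells 2. Without library 2 it was not called (edgeR, adjusted p = 0.070). Of 9 ion channel and pump genes tested 1 was higher (background 5.87%), the axonal potassium channel gene Kcna2. It had 550, 466 and 523 CPM against 349, 206 and 458 CPM (0.93 ± 0.28 SE), not called without library 1 or library 2 (edgeR, adjusted p = 0.16 and 0.19). Its relative Kcna1 had 1800 ± 130 against 1572 ± 248 CPM and overlapped. DESeq2 called 0 of the 9 genes, and limma called 0 higher (background 2.86%) and 1 lower (17.1%). Neither of the 2 cell cycle genes tested passed with edgeR, and both had an unadjusted p under 0.05, as did 545 of the 1925 genes tested.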

How the data were processed

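Single cells of 4 libraries of mouse Achilles tendon were sequenced, and 94 cells of 3 libraries were used here. The authors deposited raw UMI counts per gene and cell, natural log values and a table naming each cell's library and population. The submitters' processing notes name Cell Ranger, Seurat 2.3.4, R 3.5.2 and mm10 (GRCm38). Annotation, cell filters and clustering settings are not given in the sources used here, nor is any treatment of doublets, and no doublet caller was run. Deposited cells have at least 1010 UMIs and at most 19.99% mitochondrial UMIs. The deposited natural log values equal ln(1 + 10000 × count / cell total) within 5.0e-10 and served only as a check. Of 15750 gene entries, 4 under repeated names (0.0186% of UMIs) were left out.

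Counts were summed per library and population and tested in R 4.3.3 with edgeR 4.0.16 (quasi-likelihood, TMM, filterByExpr, library as block, Benjamini-Hochberg over all genes tested, 0.05). The pairing comes from the shared library, and the deviations of the 2 sums correlated at 0.111, 0.0339 and 0.0293. On simulated counts of this comparison (1925 genes) the test recovered 100% of 200 genes changed by 2 on the log2 scale, with 3.85% false calls. The simulation gave every gene the same spread, with no library effect beyond depth and no sorting of cells by expression. These shares therefore do not carry over to the calls in the real counts. Alternatives were DESeq2 1.42.0, limma 3.58.1 on mean log values, RLE factors, no filter, no block, each library left out, cells thinned to 3000 UMIs and clusters formed on 50% of UMIs; 3 more (cells with at most 7% mitochondrial UMIs, without mitochondrial and rRNA-like genes, without dissociation genes) were chosen after seeing the data. Members and gene lists were chosen with earlier results of these data known. Named genes are the 4 markers, the 10 largest rises and falls with adjusted p under 0.05, 1 direction in every library and 100 CPM or more on the higher side, called or most abundant members of the lists, and a set of Schwann cell genes; Sox2, Zdbf2 and Col24a1 are named as list members or markers whether or not tested. Folds against 0 UMIs use a floor of 3 counts over the group; intervals are exact at 95% and cover counting error only. Coordinates are GENCODE M21. Other tools were matplotlib 3.10.9, scipy 1.17.1, pandas 2.3.3, numpy 2.4.6 and python 3.11.15.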

Additional observations from a re-analysis of the deposited data

How the results depend on the processing

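The count of 304 called genes was 131 with DESeq2 (35 higher, 96 lower), 301 with RLE factors, 279 with no filter on low counts (46 higher, 233 lower), 302 with no replicate block, 138 with thinned cells (62 higher, 76 lower), 385 with limma (55 higher, 330 lower), 138 with clusters from the other UMIs (50 higher, 88 lower) and 43 to 404 when 1 library was left out (10 to 137 higher, 33 to 267 lower). In the alternatives chosen after seeing the data it was 145 in cells with a low mitochondrial share (46 higher, 99 lower), 288 without dissociation genes and 287 without mitochondrial and rRNA-like genes. The share of calls that were higher in nerve cells 1 was 37.2%, and 26.7% with DESeq2, 16.5% without a filter and 14.3% with limma. Of 61 named genes that were called, 562 of 717 alternative values kept the call, 155 lost it and 0 changed direction. Of the 29 higher ones 7 kept their call in every alternative that tested them, and of the 32 lower ones 20 did. Among genes not called, Sox10 turned to -0.10 without a filter, -0.28 without replicate 2 (0.29 without replicate 3), -0.38 in thinned cells, -0.29 with limma and -0.031 in cells with a low mitochondrial share. With limma Mbp was at -0.083 and Prx at -0.15. Egr2 was at 0.025 without replicate 2 (-0.36 without replicate 3) and 0.25 in thinned cells, and Nfkbia at 0.32 without replicate 2 (-0.33 without replicate 1) and 0.079 in cells with a low mitochondrial share. The cause was not tested. Dropping the block changed 1 of the 61 calls. The 3 cells of nerve cells 2 in library 3 and the 19657 UMIs they hold limit every value of that library.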

Other observations

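The 1 cell of library 4 that the authors named nerve cells 1 stood outside every comparison. It held 2746 UMIs over 1401 genes, with 6.37% mitochondrial UMIs. Compact myelin genes took 6.08% of its UMIs, with 1 UMI of Sox10. The 18 dissociation response genes took 0.0728%, with 0 UMIs of Fos and of Atf3. The 4 population markers Col24a1, Sema6c, Pou3f1 and Zdbf2 each had 0 UMIs, which at this depth sets no useful limit for genes of their abundance.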
